A study of Mus musculus with 8 samples.

Results

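The proteasome genes were examined in R1 mouse embryonic stem cells (mESCs) in which the spliceosome factor *Eftud2* had been knocked down. Members were all protein-coding genes whose GENCODE symbol begins with Psma, Psmb, Psmc, Psmd, Psme, Psmf or Psmg followed by a digit. This rule gave 50 of the 55385 genes in the count table, and 47 of them passed the expression filter and were tested. All cells were wild type R1 mESCs, a single line, grown on laminin in serum-free N2B27 medium with 2i and Lif. Every group received a lentiviral hairpin for 2 days followed by 3 days of puromycin, so that the controls also carried virus and selection. The groups were shRNA1, directed at the 3′ UTR of *Eftud2* (3 biological replicates), shRNA2, directed at its coding sequence (3 biological replicates), and nt-shRNA, a hairpin with no target (2 biological replicates). Poly(A) RNA was sequenced, and the level of a gene is given in normalised CPM, its count scaled by the size of the library.

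The proteasome is the protease that degrades most ubiquitin-tagged proteins in the cytoplasm and nucleus. Its core particle (20S) is a barrel of outer alpha rings, which gate the entry pore, and inner beta rings, of which *Psmb5*, *Psmb6* and *Psmb7* encode the catalytic subunits. The regulatory cap (19S) has a base with a ring of AAA ATPases (*Psmc* genes) that unfolds substrates and opens the gate, and a lid that holds the deubiquitinase encoded by *Psmd14*. Other caps can take the place of the 19S particle, dedicated chaperones assemble the core and the base, and in immune cells interferon-induced beta subunits replace the standard catalytic ones. In stem cells the proteasome also sets the turnover of short-lived regulators, p53 among them.

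Libraries held between 19569525 and 29871048 counts, and 3 counts correspond to 0.105 to 0.148 CPM. *Eftud2* itself was at 262 and 256 CPM with nt-shRNA, at 232, 229 and 225 CPM with shRNA1, and at 198, 202 and 235 CPM with shRNA2, with no overlap between either KD group and the controls. Its log2 fold change was -0.18 with shRNA1 (SE 0.0678, adjusted p = 0.0514, edgeR) and -0.29 with shRNA2 (SE 0.0678, adjusted p = 0.00122, edgeR). All 8 embryonic stem cell markers examined were above 1 CPM in each group, with a summed level of 4224 to 4301 CPM with nt-shRNA, 4704 to 4837 CPM with shRNA1 and 5568 to 5710 CPM with shRNA2. *Nanog* (912 CPM with nt-shRNA and 1549 CPM with shRNA2) and *Klf4* (185 and 460.4 CPM) were higher in the mean with shRNA2, whereas *Pou5f1* was lower (774 and 634 CPM). The summed fibroblast markers were at 24.9 to 27.3 CPM with nt-shRNA and 18.4 to 21.8 CPM with shRNA2, the endoderm markers at 19.8 to 20.2 and 14.1 to 17.0 CPM, and the trophoblast markers at 2.12 to 3.07 and 1.26 to 1.56 CPM. The mesoderm markers (20.1 to 23.6 and 19.3 to 25.98 CPM) overlapped between these groups, and the neural markers (7.56 to 8.32 and 6.14 to 7.62 CPM) did so at their edges. Within the lists the means differed in both directions: *Pdgfrb* (17.4 and 10.4 CPM), *Twist1* (3.98 and 2.53 CPM) and *Hand1* (1.99 and 0.642 CPM) were lower in the mean with shRNA2, and the fibroblast genes *Col1a1* (2.17 and 2.92 CPM), *Col1a2* (0.429 and 1.38 CPM) and *Thy1* (2.12 and 2.47 CPM) and the trophoblast gene *Elf5* (0.249 and 0.429 CPM) were higher. The part of these values in the results was not tested. In bulk RNA, fewer cells of a type and less RNA per cell cannot be told apart.

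Proteasome transcripts were abundant in the control cells. The 50 members took 0.637% and 0.644% of all counts in the nt-shRNA libraries (Wilson 95% intervals 0.634% to 0.639% and 0.641% to 0.647%, which cover counting error only). They took 0.698% to 0.728% in the shRNA1 libraries and 0.75% to 0.763% in the shRNA2 libraries. After normalisation, which adjusts for the composition of the libraries, their summed level was 6624 and 6896 CPM with nt-shRNA, 6846 to 7130 CPM with shRNA1 and 7418 to 7640 CPM with shRNA2. The shRNA2 libraries were thus above all others on both scales, whereas shRNA1 overlapped the controls once normalised. Per kilobase of merged exon, the 14 standard core genes ranged from 32.9 CPM per kb for *Psmb7* to 144 CPM per kb for *Psmb4* in the controls, the 6 base ATPases from 26.04 for *Psmc2* to 122.0 for *Psmc5*, and the 11 other cap genes from 28.2 for *Psmd11* to 128 for *Psmd2*, a scaffold of the base. Members of one complex therefore differed in level per length by 4.37-fold to 4.68-fold within a class, and these levels depend on the annotated exon length, which includes rare isoforms.

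*Psmb8*, *Psmb11* and *Psme2b* did not pass the filter and had between 0 and 11 counts in any library. *Psmb8* encodes the interferon-induced counterpart of *Psmb5*, *Psmb11* the thymus-specific one, and *Psme2b* is a single-exon copy of the activator gene *Psme2*. A further 4 genes with a matching symbol are pseudogenes (*Psmb5-ps*, *Psmb6-ps*, *Psmb6-ps2* and *Psmb7-ps2*) and had 0 to 3 counts per library.

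Proteasome genes shifted by small amounts, and mostly upward with shRNA2. With shRNA1, 8 of the 47 tested members were higher than with nt-shRNA at an adjusted p under 0.05 (17%, against 13.8% of the 17445 genes tested) and 4 were lower (8.51%, against 17.1%). With shRNA2, 21 members were higher (44.7%, against 27.2% of all tested genes), 5 were lower (10.6%, against 28.7%) and 21 were not called. The median log2 fold change of the members was -0.001 with shRNA1 and 0.079 with shRNA2, beside medians of -0.007 and 0.004 over all tested genes. No member changed more than 2-fold, whereas 5.95% of all tested genes with shRNA1 and 14.8% with shRNA2 had a fold change of that size. The median absolute log2 fold change was 0.11 and 0.18 for the members, against 0.22 and 0.37 for all genes. The set of all tested genes was not matched to the members for expression level, so the smaller size of the member changes is a description only. All 8 members that rose with shRNA1 also rose with shRNA2 and 3 of the 4 that fell also fell, but both comparisons use the same nt-shRNA libraries. The matching share over all tested genes was not computed, so this agreement is given as a description only. The shRNA1 counts moved with the libraries used, and so did those over all genes. They were 4 higher and 0 lower without nt-shRNA replicate 2, 5 higher and 1 lower without shRNA1 replicate 1 or 2, 9 higher and 8 lower without shRNA1 replicate 3, and 6 higher and 1 lower without nt-shRNA replicate 1. The share of all tested genes called higher was 8.47%, 10.3%, 9.33%, 15.1% and 6.91% in these fits, in that order, and the share called lower ran from 9.41% to 18.7%. Without nt-shRNA replicate 1 or 2, the members that rose with shRNA2 were 14 and 13, and the share of all tested genes called higher was 20% and 20.7%. Without TMM, that is with library size as the only scaling, the median of all genes was 0.107 with shRNA1 and 0.093 with shRNA2, and 21 members were higher and 0 lower with shRNA1 (23.5% and 9.82% of all tested genes).

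**Figure D1:**
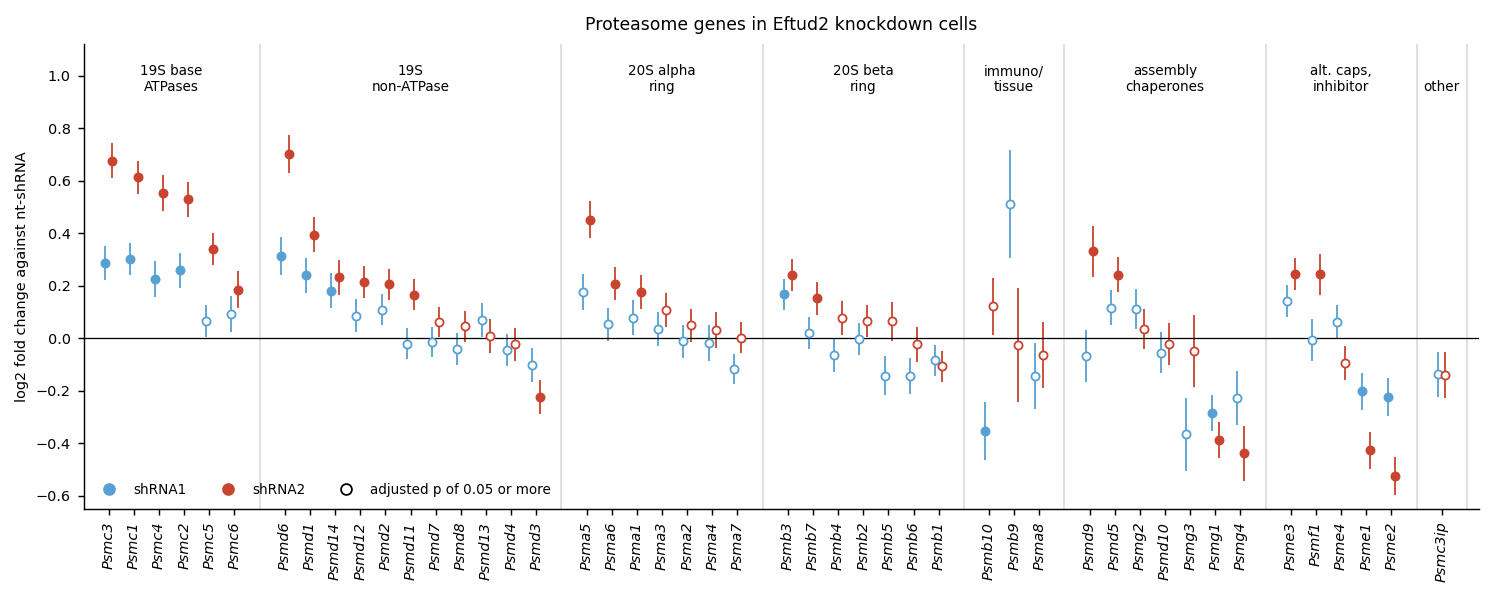
Log2 fold change against nt-shRNA (y axis) of the 47 tested members, grouped by their place in the proteasome and ordered by the shRNA2 value. Points are edgeR estimates from 3 KD and 2 nt-shRNA libraries, bars are standard errors, and open points had an adjusted p of 0.05 or more. All 6 base ATPases lie above 0 with both hairpins, whereas *Psme1*, *Psme2*, *Psmg1* and *Psmg4* lie below it.

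The base ATPases were mostly called higher with both hairpins. These 6 AAA ATPases form the ring that unfolds substrates and threads them into the core. With shRNA2 all 6 were called higher, with a median log2 fold change of 0.54, and with shRNA1 4 of 6 were higher, with a median of 0.24 (27.2% and 13.8% of all tested genes were called higher). The largest change with shRNA2 was that of *Psmc3* (chromosome 2, 91054009 to 91066369, GRCm38), whose product contacts the polyubiquitin chain. It was at 144 and 139 CPM with nt-shRNA, at 167, 177 and 175 CPM with shRNA1, and at 219, 244 and 217 CPM with shRNA2. The 3 groups did not overlap, and the order was nt-shRNA, shRNA1, shRNA2. Its log2 fold change was 0.29 with shRNA1 (SE 0.0646, adjusted p = 0.00237, edgeR) and 0.68 with shRNA2 (SE 0.0651, adjusted p = 6.5e-08). On the opposite strand, *Slc39a13* overlaps *Psmc3* at a mean of 14 CPM, and the counting was unstranded, so a part of these counts is uncertain.

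*Psmc1* (chromosome 12, 100110154 to 100123405), which carries a C-terminal motif that opens the core gate, was at 174 and 168 CPM with nt-shRNA, at 216, 213 and 204 CPM with shRNA1, and at 259, 277 and 249 CPM with shRNA2. Again each group stood clear of the next. The log2 fold change was 0.30 (SE 0.0621, adjusted p = 0.0011, edgeR) with shRNA1 and 0.61 (SE 0.0625, adjusted p = 1.4e-07) with shRNA2. *Psmc2* was at 130.3 and 132 CPM, then 166, 159 and 146 CPM, then 186, 199 and 183 CPM in the same order of groups, a rise of 0.26 and of 0.53. *Psmc4* was at 138 and 126 CPM, then 157, 156 and 150.3 CPM, then 186, 210.2 and 186 CPM, a rise of 0.23 and of 0.56. For both genes the 3 groups were separate. With shRNA2 these 4 genes were called in each of the 15 alternative analyses, and with shRNA1 the call of *Psmc2* was lost without nt-shRNA replicate 1 (adjusted p = 0.0613, edgeR) and that of *Psmc4* without shRNA1 replicate 2 or nt-shRNA replicate 2 (adjusted p up to 0.22).

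The remaining ATPases, *Psmc5* and *Psmc6*, moved less. *Psmc5* was at 174 and 166 CPM with nt-shRNA, at 180.1, 176 and 178 CPM with shRNA1, and at 209, 229.5 and 208 CPM with shRNA2. The shRNA1 libraries were barely above the controls (log2 fold change 0.07, edgeR adjusted p = 0.443) and the shRNA2 libraries stood apart (0.34, SE 0.0619, adjusted p = 1.2e-04). *Psmc6*, at 164 and 159.7 CPM with nt-shRNA, reached 187, 176 and 189 CPM with shRNA2 and ranged from 158 to 189 CPM with shRNA1. The shRNA1 value was 0.09 (edgeR adjusted p = 0.335) and the shRNA2 value 0.19 (SE 0.0696, edgeR adjusted p = 0.0293), and the latter call was lost without either nt-shRNA replicate or without shRNA2 replicate 1 or 3 (adjusted p up to 0.16). In the direct comparison of the hairpins, 5 of 6 ATPases were higher with shRNA2 than with shRNA1 (16.9% of all tested genes were), with log2 differences of 0.27 to 0.39, and *Psmc6* was not called (0.09, adjusted p = 0.254, edgeR).

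**Figure D2:**
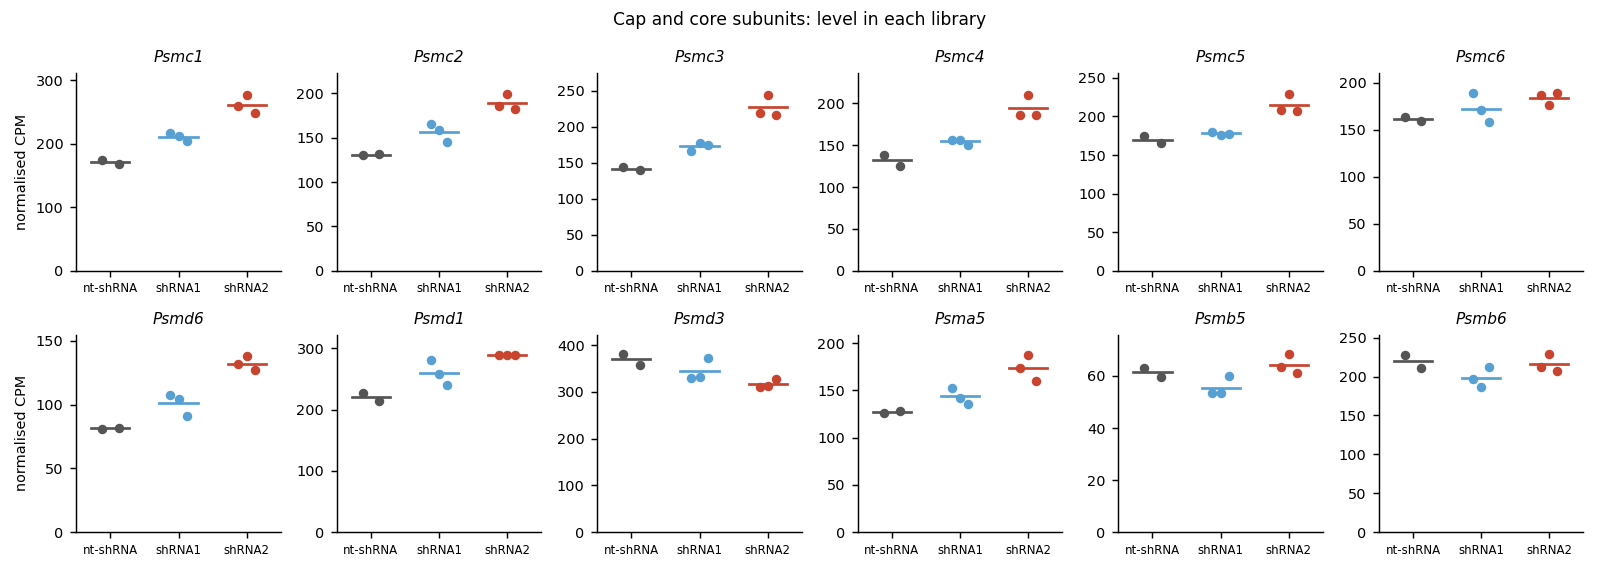
Normalised level in CPM (y axis, from 0) of the 6 base ATPases, 3 other cap genes (*Psmd6*, *Psmd1*, *Psmd3*) and 3 core genes (*Psma5*, *Psmb5*, *Psmb6*), with 1 point per library and the group mean as a line. *Psmc1* and *Psmd6* step up from nt-shRNA to shRNA1 and to shRNA2, whereas *Psmb5* and *Psmb6* overlap between nt-shRNA and shRNA2.

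The other cap genes gave a mixed picture. Of the 11 non-ATPase subunits, 6 rose and 1 fell with shRNA2 (median log2 fold change 0.17), and 3 rose with shRNA1 (median 0.07). Over all tested genes, 27.2% rose and 28.7% fell with shRNA2 and 13.8% rose with shRNA1. *Psmd6* (chromosome 14, 14112174 to 14120984), a lid subunit, had the largest change of any member with shRNA2. It was at 81.3 and 81.4 CPM with nt-shRNA, at 108, 104 and 91.3 CPM with shRNA1, and at 132, 138 and 127 CPM with shRNA2. No group overlapped another, and the log2 fold change was 0.31 with shRNA1 (SE 0.0714, adjusted p = 0.00253, edgeR) and 0.70 with shRNA2 (SE 0.0717, adjusted p = 1.4e-07). *Psmd1*, a scaffold of the base that docks ubiquitin receptors, was at 227 and 213 CPM with nt-shRNA, at 282, 258 and 239.8 CPM with shRNA1, and at 289, 289.5 and 289 CPM with shRNA2. The rise was 0.24 (edgeR adjusted p = 0.00997) in the former and 0.39 (edgeR adjusted p = 5.9e-05) in the latter, and the shRNA1 call was lost without shRNA1 replicate 1 or nt-shRNA replicate 2 (adjusted p up to 0.127).

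Within the lid, *Psmd14*, the deubiquitinase that removes the ubiquitin chain as the substrate enters, was at 124 and 116 CPM in the controls, at 142, 141 and 125 CPM with shRNA1 and at 141, 137 and 144.5 CPM with shRNA2. It rose by 0.18 (adjusted p = 0.0441, edgeR) and 0.23 (adjusted p = 0.00583), with no overlap with the controls. The shRNA1 call was lost in 6 of 15 alternatives, among them the fits without either nt-shRNA replicate or shRNA1 replicate 1 or 2 (adjusted p up to 0.299), and without nt-shRNA replicate 2 the shRNA2 call was lost too (adjusted p = 0.096). *Psmd12* (0.21), *Psmd2* (0.21) and *Psmd11* (0.17) rose with shRNA2 and were not called with shRNA1. These calls also rest on nt-shRNA replicate 2, and that of *Psmd11* on shRNA2 replicate 2, without which their adjusted p values were up to 0.076, 0.107 and 0.213. *Psmd3*, also a lid subunit, fell with shRNA2. It was at 381 and 358 CPM with nt-shRNA, 329.8, 331 and 372 CPM with shRNA1, and 311, 312 and 328 CPM with shRNA2. The change was -0.10 (edgeR adjusted p = 0.251) for shRNA1 and -0.22 (SE 0.0648, edgeR adjusted p = 0.00676) for shRNA2. The shRNA2 libraries lay below all others, and the call was lost with library size alone or without nt-shRNA replicate 1 (adjusted p up to 0.0908). *Psmd4*, the ubiquitin receptor of the base, *Psmd7*, *Psmd8* and *Psmd13* were called with neither hairpin, with log2 fold changes between -0.04 and 0.07.

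With shRNA1, *Psmb3* was the 1 standard core gene of 14 that was called (0.17, edgeR adjusted p = 0.0413; 13.8% of all tested genes rose and 17.1% fell), a call lost in 7 of 15 alternatives, among them the fits without any 1 of the shRNA1 replicates or nt-shRNA replicate 2 (adjusted p up to 0.429). With shRNA2, 5 of 14 core genes rose and none fell, with a median log2 fold change of 0.07, beside 27.2% and 28.7% of all tested genes. *Psma5*, an alpha-ring subunit, changed most. It was at 126 and 128 CPM with nt-shRNA, at 153, 142.5 and 136 CPM with shRNA1, and at 174, 187 and 160.4 CPM with shRNA2, so that the groups were separate in the same order as for the ATPases. The log2 fold change was 0.18 with shRNA1 (SE 0.0701, adjusted p = 0.0624, edgeR) and 0.45 with shRNA2 (SE 0.0704, adjusted p = 2.3e-05), and the difference between the hairpins was 0.28 (adjusted p = 0.00216). The shRNA1 value passed the threshold in 7 of 15 alternatives (adjusted p between 0.0035 and 0.248). *Psma6* (0.21), *Psma1* (0.18), *Psmb3* (0.24) and *Psmb7* (0.15) were the others that rose with shRNA2. *Psma6* was at 143 and 149.8 CPM in the controls and at 166, 176 and 166 CPM with shRNA2. *Psmb3* was at 198 and 179 CPM in the controls and at 223, 222 and 222 CPM with shRNA2. Each of these calls was lost when 1 nt-shRNA replicate was left out (replicate 1 for *Psma6*, replicate 2 for *Psmb3*, either for *Psma1* and *Psmb7*, which also lost it without shRNA2 replicate 3 and shRNA2 replicate 1 or 2, respectively), with adjusted p values up to 0.106, 0.0911, 0.18 and 0.229. The call of *Psmb7* was lost in 7 of 15 alternatives, among them DESeq2 and the fit without shRNA1 replicate 2. With no filter, *Psma1* and *Psmb7* both lost it. *Psma7* (0.00) and *Psmb1* (-0.11, adjusted p = 0.132) were furthest on the other side of the alpha and beta rings with shRNA2 and were not called.

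Of the catalytic genes, *Psmb5*, which provides the chymotrypsin-like site, was at 63.2 and 59.6 CPM with nt-shRNA, at 53.3, 53.3 and 60.1 CPM with shRNA1, and at 63.5, 68.3 and 61.0 CPM with shRNA2. *Psmb6*, the caspase-like site, was at 228 and 211 CPM, then 197, 186 and 213 CPM, then 212, 229 and 207 CPM. Both genes overlapped the controls with either hairpin and were not called against nt-shRNA (adjusted p = 0.16 and 0.474 for *Psmb5*, 0.115 and 0.795 for *Psmb6*, edgeR). With shRNA1 the overlap came from replicate 3, and without it both were called lower (-0.20 and -0.19, edgeR adjusted p = 0.04 and 0.028). *Psmb7*, the trypsin-like site, was at 114 and 111 CPM with nt-shRNA, at 119.7, 115 and 108 CPM with shRNA1 and at 125, 128 and 122 CPM with shRNA2, and its rise with shRNA2 had the largest adjusted p among the shRNA2 calls (0.0444). *Nek6* overlaps *Psmb7* on the opposite strand at a mean of 44.9 CPM, so its counts are uncertain too.

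Set against the core, the ATPase genes stood higher in the KD libraries. The mean level per kilobase of the 6 ATPases, divided by that of the 14 core genes, was 0.868 and 0.859 in the nt-shRNA libraries, 0.987, 0.998 and 0.975 in the shRNA1 libraries, and 1.096, 1.13 and 1.09 in the shRNA2 libraries. These ratios did not overlap between groups and do not depend on the scaling of the libraries. For the 11 non-ATPase subunits the ratio to the core was 0.869 and 0.845 with nt-shRNA, 0.882, 0.882 and 0.89 with shRNA1, and 0.86, 0.832 and 0.877 with shRNA2, where the shRNA2 and nt-shRNA libraries were interleaved. The ratios sum over the members and were given no test.

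**Figure D3:**
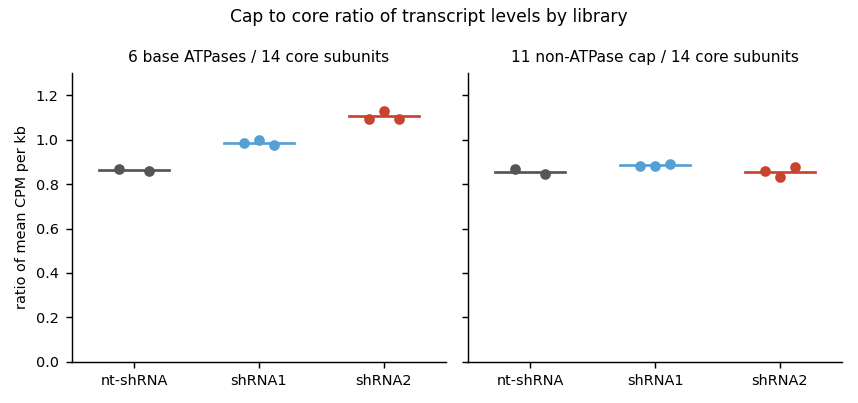
Ratio of mean level per kilobase (y axis, from 0) of the 6 base ATPases (left) or the 11 non-ATPase cap genes (right) to the 14 standard core genes, with 1 point per library and the group mean as a line. The ATPase ratio is 0.859 to 0.868 with nt-shRNA and 1.09 to 1.13 with shRNA2, whereas the non-ATPase ratio stays between 0.832 and 0.89.

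The interferon-induced core genes were at low levels, and the hairpins differed. *Psmb10* (chromosome 8, 105935735 to 105938444), the counterpart of *Psmb7*, was at 12.6 and 13.0 CPM with nt-shRNA, at 9.74, 9.77 and 10.6 CPM with shRNA1, and at 14.1, 14.8 and 12.9 CPM with shRNA2. The shRNA1 libraries were below all others, and the shRNA2 libraries overlapped the controls. Against nt-shRNA it changed by -0.35 in the first group (SE 0.1097, edgeR adjusted p = 0.0199) and differed by 0.12 in the other (edgeR adjusted p = 0.353), and the hairpins differed by 0.47 (adjusted p = 0.00129). The shRNA1 call was lost when nt-shRNA replicate 1 or 2 or shRNA1 replicate 1 or 2 was left out and with library size alone (adjusted p up to 0.116), whereas the difference between the hairpins was called in all 15 alternatives. *Psmb9*, the counterpart of *Psmb6*, had 41 to 98 counts per library. It was at 2.17 and 2.54 CPM with nt-shRNA, 3.25, 3.36 and 3.49 CPM with shRNA1, and 1.91, 1.98 and 3.08 CPM with shRNA2. Here the shRNA1 libraries were above all others, with a log2 fold change of 0.51 (SE 0.2061, adjusted p = 0.0663, edgeR) that passed the threshold in 4 of 15 alternatives (adjusted p between 0.028 and 0.317). The shRNA2 libraries differed from shRNA1 by -0.54 (adjusted p = 0.0344), a call lost without any 1 of the shRNA1 replicates, without shRNA2 replicate 1 or 2, and with DESeq2 (adjusted p up to 0.152). *Psmb9* (chromosome 17, 34181987 to 34187764) overlaps the peptide transporter gene *Tap1* on the opposite strand, which rose from 6.41 and 5.85 CPM with nt-shRNA to 15.3, 17.3 and 11.3 CPM with shRNA2. *Psma8*, which in testis replaces *Psma7*, was at 8.2 to 10.4 CPM in every library and was not called.

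Of 4 markers of lymphoid or myeloid cells, which are rich in these subunits, *Ptprc*, their defining surface antigen, was at 0 in every library, and the summed level was 27.1 to 28.9 CPM with nt-shRNA, 11.2 to 13.4 CPM with shRNA1 and 8.77 to 10.2 CPM with shRNA2. Only 1 of the 4 reached 1 CPM in a group mean, the lysosomal gene *Cd68* (27.4, 11.6 and 8.98 CPM), and *Cd3e* was below 1 CPM. The part of these values in the *Psmb10* and *Psmb9* results was not tested.

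Among the alternative caps, the PA28 activator genes *Psme1* and *Psme2* fell. *Psme1* and *Psme2* encode the subunits of the interferon-inducible 11S ring, which opens the core for peptides without ATP, and lie 5.91 kb apart on chromosome 14. *Psme2* (55587441 to 55591113) was at 44.4 and 47.2 CPM with nt-shRNA, at 39.4, 40.3 and 38.0 CPM with shRNA1, and at 32.9, 31.3 and 31.3 CPM with shRNA2. *Psme1* (55578123 to 55581529) was at 72.9 and 73.0 CPM, then 61.3, 65.0 and 64.0 CPM, then 51.5, 52.1 and 59.2 CPM. For both genes the groups were separate and ran opposite to the ATPases, from nt-shRNA down to shRNA2. The log2 fold changes of *Psme2* were -0.22 (SE 0.072, adjusted p = 0.0241, edgeR) and -0.52 (SE 0.0728, adjusted p = 6.2e-06), and those of *Psme1* -0.20 (SE 0.0708, adjusted p = 0.0372) and -0.43 (SE 0.0712, adjusted p = 4.9e-05). The shRNA2 calls were kept in all 15 alternatives, but the shRNA1 calls of both genes were lost without either nt-shRNA replicate, without shRNA1 replicate 1 or 2 and with library size alone, and that of *Psme1* also without shRNA2 replicate 1, with DESeq2 and with the stricter count filter (adjusted p up to 0.382 for *Psme1* and 0.274 for *Psme2*).

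*Psme3*, the nuclear member of the 11S family, went the other way. It was at 155 and 151 CPM with nt-shRNA, at 176, 171 and 158 CPM with shRNA1, and at 178, 183 and 182 CPM with shRNA2, with log2 fold changes of 0.14 (adjusted p = 0.0871, edgeR) and 0.25 (adjusted p = 0.00211). *Psmf1*, which encodes the inhibitor PI31, was at 38.3 and 40.2 CPM in the controls, at 37.3, 39.8 and 40.2 CPM with shRNA1 and at 46.4, 50.01 and 43.0 CPM with shRNA2. It rose with shRNA2 (0.24, adjusted p = 0.0128, edgeR, up to 0.12 without nt-shRNA replicate 1). *Psme4*, the PA200 cap that acts on histones, was between 304 and 377 CPM in every library and was not called against nt-shRNA.

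Of the 7 assembly chaperones, 2 rose and 2 fell with shRNA2 (27.2% and 28.7% of all tested genes) and 1 fell with shRNA1 (17.1% of all tested genes). *Psmg1*, a subunit of the heterodimer that starts the alpha ring, was at 69.2 and 72.6 CPM with nt-shRNA, at 55.1, 58.5 and 61.1 CPM with shRNA1, and at 55.7, 53.3 and 53.6 CPM with shRNA2. All KD libraries were below the controls, and the hairpins overlapped each other. The log2 fold change was -0.28 (SE 0.0676, adjusted p = 0.00352, edgeR) with shRNA1 and -0.39 (SE 0.0679, adjusted p = 8.1e-05) with shRNA2, and the shRNA1 call was lost without nt-shRNA replicate 2 or with library size alone (adjusted p up to 0.0659). *Psmg4*, which acts on the alpha ring with *Psmg3*, was at 17.5 and 19.1 CPM, then 14.6, 15.4 and 16.8 CPM, then 12.5, 14.02 and 14.1 CPM, which gave -0.23 (edgeR adjusted p = 0.104) and -0.44 (SE 0.1045, edgeR adjusted p = 0.00152) on the log2 scale. The shRNA1 value passed the threshold in 1 of 15 alternatives (adjusted p = 0.042). *Psmg3* (8.21, 7.4 and 9.62 CPM with shRNA1, against 11.51 and 10.3 CPM) missed the threshold with shRNA1 (-0.37, adjusted p = 0.0516) and passed it in 5 of 15 alternatives (adjusted p between 0.018 and 0.296). *Psmg2*, the partner of *Psmg1*, was called in no comparison (37.4 to 43.8 CPM over all libraries). Of the base chaperones, *Psmd9* was at 21.6 and 22.5 CPM with nt-shRNA, at 20.3, 21.8 and 21.2 CPM with shRNA1, and at 27.3, 31.3 and 24.7 CPM with shRNA2, and the hairpins differed by 0.40 (edgeR adjusted p = 0.00179). It rose by 0.33 with shRNA2 (adjusted p = 0.00706) and *Psmd5* by 0.24 (adjusted p = 0.00477), both lost without nt-shRNA replicate 1 (adjusted p = 0.066 and 0.0722). *Psmd10*, also known as gankyrin, stayed between 28.1 and 31.1 CPM.

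**Figure D4:**
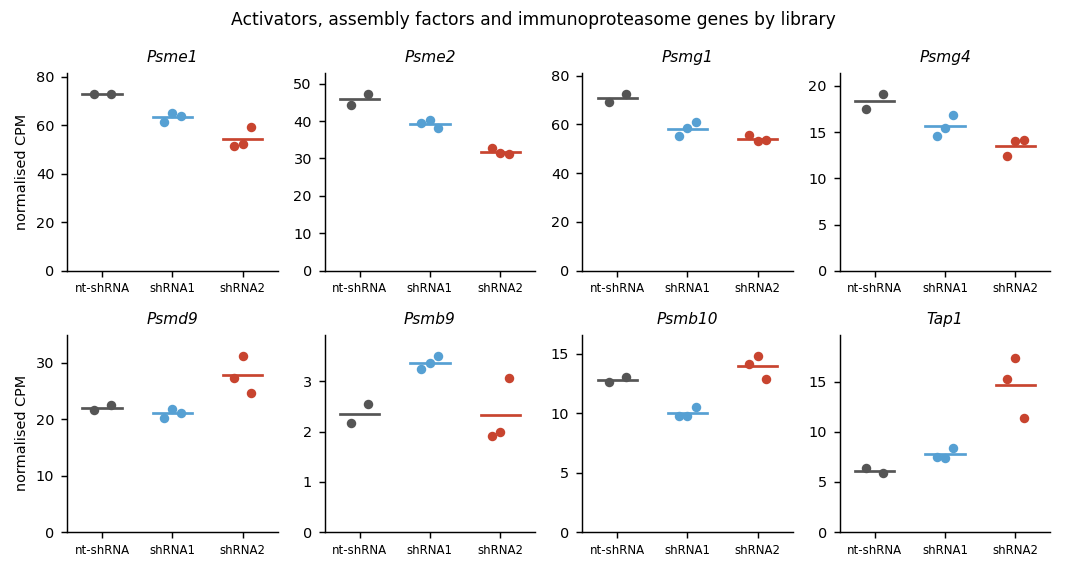
Normalised level in CPM (y axis, from 0) of the activator genes *Psme1* and *Psme2*, the assembly factors *Psmg1*, *Psmg4* and *Psmd9*, the interferon-induced core genes *Psmb9* and *Psmb10*, and *Tap1*, with 1 point per library and the group mean as a line. *Psme1*, *Psme2* and *Psmg1* are lower in all KD libraries than in both controls, and *Psmb10* is lowest with shRNA1.

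Tested directly, the hairpins differed for 18 of 47 members. With shRNA2, 14 were higher than with shRNA1 (29.8%, against 16.9% of all tested genes) and 4 were lower (8.51%, against 18.7%). The higher ones were *Psmc1* to *Psmc5*, *Psmd6*, *Psmd1*, *Psmd11*, *Psma5*, *Psma6*, *Psmb5*, *Psmb10*, *Psmd9* and *Psmf1*, and the lower ones *Psme1*, *Psme2*, *Psme4* and *Psmb9*. Without 1 library at a time, between 10 and 15 members were higher and between 1 and 4 lower, the lowest of these counts being those without shRNA2 replicate 2 and shRNA2 replicate 1. In these fits, 11.53% to 17.7% of all tested genes were higher and 13.45% to 19.3% lower. The share called higher was also lowest without shRNA2 replicate 2. The call of *Psmd1* was lost in 13 of 15 alternatives and that of *Psma6* in 9 (edgeR adjusted p up to 0.193 and 0.128), and that of *Psmf1* without shRNA2 replicate 2 (0.0546). Among the lower members, *Psme1* lost its call without shRNA2 replicate 1 (edgeR adjusted p = 0.0678). The last member, *Psmc3ip*, is named for binding *Psmc3* but encodes a meiotic recombination factor. It was at 24.03 and 24.7 CPM in the controls and at 21.3 to 23.6 CPM in the KD libraries, and was called in no comparison. *Mlx* overlaps *Psmc3ip* on the opposite strand at a mean of 26.6 CPM, so the counts of *Psmc3ip* are uncertain as well. Genes at a mean above 1 CPM also overlap *Psme1* (*Emc9*, 7.19 CPM), *Psmd13* (*Sirt3*, 18 CPM, and *Gm15542*, 1.82 CPM), *Psma2* (*AW209491*, 12.6 CPM) and *Psma3* (*3110056K07Rik*, 5.84 CPM).

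Genes that work with the proteasome but bear other names were examined in 4 lists, whose counts are to be read against the 27.2% of all tested genes that were higher and 28.7% that were lower with shRNA2 (13.8% and 17.1% with shRNA1). Of 11 tested partners of the 26S particle, 3 rose and 1 fell with shRNA2, and 1 fell with shRNA1, so that the share that rose with shRNA2 was near that of all genes. *Adrm1*, a ubiquitin receptor bound to the base, was at 126 and 109 CPM with nt-shRNA and at 148, 165 and 147 CPM with shRNA2 (0.38, adjusted p = 2.8e-04, edgeR). *Zfand2a*, a stress-induced zinc finger protein that binds the cap, rose by 0.55 with shRNA2 (adjusted p = 5.6e-04), and the ligase *Ube3c* by 0.23 (adjusted p = 0.0113). *Sem1*, the smallest lid subunit, fell from 238 and 222 CPM to 195, 181 and 202 CPM with shRNA1 and to 193, 209.8 and 194 CPM with shRNA2 (-0.26 and -0.21, adjusted p = 0.00565 and 0.00966). *Pomp*, the chaperone that completes the core, and the deubiquitinase *Usp14* were not called.

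Among 7 genes of the transcriptional control of the proteasome, 3 rose and 3 fell with shRNA2 (against 27.2% and 28.7% of all tested genes), and 2 rose and 2 fell with shRNA1 (against 13.8% and 17.1%). *Nfe2l1* encodes the transcription factor NRF1, known for raising proteasome gene expression when the protease is inhibited. It was at 344 and 312 CPM with nt-shRNA, at 253, 234 and 271 CPM with shRNA1, and at 226, 229 and 224 CPM with shRNA2. Its transcript thus fell in every KD library, by 0.37 with shRNA1 (SE 0.066, adjusted p = 2.9e-04, edgeR) and by 0.54 with shRNA2 (SE 0.066, adjusted p = 1.4e-06). *Ddi2*, the protease that activates this factor by cleavage, was at 65.9 and 63.0 CPM, then 83.7, 85.9 and 79.4 CPM, then 109, 117 and 106 CPM, a rise of 0.36 (adjusted p = 4e-04, edgeR) and of 0.78 (adjusted p = 1.6e-08). *Nfyc*, a subunit of the CCAAT-binding factor NF-Y, rose by 0.47 (adjusted p = 4.6e-04) and 0.98 (adjusted p = 2.7e-08), whereas its partner *Nfyb* fell by 0.28 and 0.27 (adjusted p = 0.00267 and 0.00148) and *Nfya* fell with shRNA2 by 0.39 (adjusted p = 4.3e-05). *Nfe2l2* rose by 0.16 with shRNA2 (adjusted p = 0.0295), and *Ngly1*, which deglycosylates NRF1, was not called.

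Promoter windows of the members were searched for the letters that NRF1 and NF-Y are known to bind, and for the E box. RefSeq windows of GRCm38.p6 from 250 bases before to 50 bases after the start were held for 42 of the 50 members (45 windows). The antioxidant response element, TGACNNNGC on either strand, was present in 6 of 45 windows (13.33%, against 12.39% of 32851 windows of all genes). The NF-Y box, CCAAT on either strand, was present in 33.33% (against 37.41%) and the E box, CACGTG, in 8.89% (against 7.15%). Of the 6 response elements, 1 lies in the window of *Psme4*. The other matches are shown in 30 bases each, because they cover cap genes that rose with shRNA2, catalytic genes that were not called and an assembly factor, with the element in capitals and the sequence 5′ to 3′ on the strand of the gene.
*Psmc6*, chr14:45329587-45329616, plus strand: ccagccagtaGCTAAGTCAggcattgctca
*Psmd12*, chr11:107479278-107479307, plus strand: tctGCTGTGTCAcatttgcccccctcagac
*Psmb5*, chr14:54618023-54618052, minus strand: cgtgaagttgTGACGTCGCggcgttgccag
*Psmb6*, chr11:70525327-70525356, plus strand: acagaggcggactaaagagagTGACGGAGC
*Psmd9*, chr5:123228149-123228178, plus strand: atctagccggTGACCCCGCccacttccaag
The elements begin 227, 247, 47, 9 and 31 bases before the annotated start, and those of *Psmc6* and *Psmd12* read in the reverse direction. With shRNA2, *Psmc6* (0.19), *Psmd12* (0.21) and *Psmd9* (0.33) rose and *Psmb5* and *Psmb6* were not called, and the windows of *Psmc1*, *Psmc2*, *Psmc4* and *Psmc5* had no match to this element. Members without a window were *Psma8*, *Psmb1*, *Psmb2*, *Psmb7*, *Psmc3*, *Psmd3*, *Psmd7* and *Psmg2*. The window of *Psmd9* lies inside the span of a longer annotated transcript of the gene.

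Of 14 genes of ubiquitin, its activation and its delivery, 5 rose and 5 fell with shRNA2, not far from the 27.2% and 28.7% of all tested genes, and 5 fell with shRNA1 (against 17.1%). *Ubb*, which encodes polyubiquitin, was at 695 and 661 CPM with nt-shRNA, at 504, 525 and 586 CPM with shRNA1, and at 524, 536 and 531 CPM with shRNA2, and fell by 0.33 and 0.35 (adjusted p = 7.5e-04 and 1.4e-04, edgeR). Its near-identical repeats could be under-counted, since fragments with several alignments were left out. *Ufd1* (0.48, adjusted p = 4.1e-05) and *Nploc4* (0.37, adjusted p = 1.2e-04), the cofactors with which the segregase *Vcp* delivers unfolded substrates, rose with shRNA2, as did *Vcp* itself (0.17, adjusted p = 0.0139) and the shuttle *Rad23b* (0.24, adjusted p = 0.00304).

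The products of the antigen presentation genes take up proteasome peptides. With shRNA2 3 of 10 rose and 4 fell, shares near the 27.2% and 28.7% of all tested genes, and with shRNA1 3 rose and 3 fell (against 13.8% and 17.1%). *Tap1* rose by 1.26 with shRNA2 (SE 0.1558, adjusted p = 1.6e-06, edgeR), whereas the class I heavy chain gene *H2-K1* fell from 62.3 and 61.1 CPM to 31.9, 25.5 and 30.4 CPM (-1.08, SE 0.0936, adjusted p = 1.8e-08). *Irf1*, a transcription factor that induces *Psmb9* and *Tap1*, fell with both hairpins (-0.62 and -0.65, edgeR adjusted p = 6.5e-05 and 1e-05).

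The 47 tested members had between 3 and 47 exons (median 8.0) and a median merged exon length of 2800 bases, against 9.0 exons and 4334.5 bases for the tested protein-coding genes. Across these members, the log2 fold change and the number of exons correlated with a Pearson r of 0.264 and a Spearman rho of 0.438 for shRNA1, and of 0.096 and 0.313 for shRNA2. The points share libraries, and genes are not independent replicates, so this is given as a description. *Psme4*, with the most exons, was not called against nt-shRNA, and *Psmb5* and *Psmg4*, with 3 each, were not called and lower with shRNA2, respectively. The members lie on 16 chromosomes, with 10 on chromosome 11, and apart from the *Psme1* and *Psme2* pair the closest neighbours were *Psmb5* and *Psmb11* (3.41 kb) and *Psmb9* and *Psmb8* (9.96 kb), each with 1 member below the filter.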

How the data were processed

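Poly(A) RNA was made into NEBNext Ultra II libraries. The authors mapped paired-end reads to mm10 with STAR and deposited raw counts of fragments per gene, from featureCounts 1.6.2 on GENCODE M24 exons, without strand or multimapping fragments. Names came from GENCODE M21 (55144 of 55385 identifiers). Members and gene lists were chosen with earlier results of these data known. Count analysis used edgeR 4.0.16 (R 4.3.3) with filterByExpr (minimum count 10), TMM factors, and glmQLFit and glmQLFTest on a coefficient per group over all 8 libraries. Genes were called at a Benjamini-Hochberg adjusted p under 0.05 over the 17445 tested, and standard errors derive from the F statistic. Named by rule were, per class, the genes with the smallest adjusted p with shRNA2 and the one furthest on the other side of the class median, the catalytic subunits with their interferon-induced counterparts, and members whose hairpins differed by 0.5 or more (log2). Further members were described after their values had been seen. Alternatives were DESeq2 1.42.0 (the authors' test), its size factors, library size alone, other filters, only the groups compared, a block, and each library left out. The code was first tested on simulated data. The common biological coefficient of variation was 0.0638, and no library repeated another of its group within sampling noise. Some genes of the related lists are not reported here by name.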

Additional observations from a re-analysis of the deposited data

Results flagged for a closer look

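For 7 members the hairpins differed in the direct test while their changes against nt-shRNA had opposite signs. Over all tested genes, 16.9% were higher and 18.7% lower in the direct test. The share of all genes that met both conditions was not computed, so the 7 are given as a description. The differences (shRNA2 minus shRNA1, log2) were 0.47 for *Psmb10*, -0.54 for *Psmb9*, 0.40 for *Psmd9*, 0.25 for *Psmf1*, 0.21 for *Psmb5*, 0.19 for *Psmd11* and -0.16 for *Psme4*, with adjusted p values from edgeR of 0.00129, 0.0344, 0.00179, 0.01, 0.0224, 0.00988 and 0.041. The calls of *Psmb5*, *Psme4* and *Psmb9* were lost in 4, 5 and 6 of 15 alternatives. None of the 7 was called in opposite directions against nt-shRNA. The largest opposite values were those of *Psmb10* (-0.35 with shRNA1 and 0.12 with shRNA2) and *Psmb9* (0.51 and -0.03), and the latter gene had the fewest counts of the tested members.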

How the results depend on the processing

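Of 2115 member values recomputed under 15 alternatives set out in the plan, none reversed a call, 105 lost it and 42 gained it, and 89 uncalled values changed sign. Of the calls, 3 of 12 with shRNA1, 13 of 26 with shRNA2 and 11 of 18 between hairpins were kept under every alternative. The matching shares over all tested genes were not computed. The numbers of calls kept, lost and gained are therefore given as a description only. With library size alone, 21 members were higher and 0 lower with shRNA1 (23.5% and 9.82% of all tested genes), and the medians rose to 0.11 and 0.16 for the standard core, 0.36 and 0.63 for the base ATPases, 0.19 and 0.26 for the non-ATPase subunits and 0.11 and 0.17 for all members (shRNA1 and shRNA2 against nt-shRNA). Leaving out 1 library at a time gave 4 to 10 higher and 0 to 8 lower members with shRNA1, 13 to 21 higher with shRNA2, and 1 to 4 lower with shRNA2 than with shRNA1 (6.91% to 15.4%, 9.41% to 18.9%, 20% to 28.3% and 13.4% to 19.3% of all tested genes, in that order), and moved the shRNA1 median of the non-ATPase subunits to between 0.0045 and 0.11. With the replicate block, 8 members were higher and 5 lower with shRNA1, 21 and 5 with shRNA2, and 14 and 4 between hairpins (15.4% and 19.1%, 28.1% and 29.4%, and 17.9% and 19.5% of all tested genes). The block brought *Psma5* and *Psmg4* (adjusted p = 0.042) past the threshold with shRNA1 and removed the shRNA1 call of *Psmb3*, and it changed no other member's call. Deviations of same-numbered libraries correlated by -0.03 to 0.07 and those of differently numbered libraries by -0.08 to 0.03. Between shRNA1 and shRNA2, the same-numbered values were 0.02, 0.06 and 0.07. With values this small, the numbers were not taken as pairs in the main fit. For its qPCR, the paper set each knockdown replicate against the nt-shRNA replicate that corresponded to it. DESeq2 called 8 higher and 3 lower members with shRNA1 and 20 and 5 with shRNA2, beside 11.48% and 14.7%, and 24.2% and 25.9%, of all tested genes. Without shRNA1 replicate 3, *Psmd3* and *Psme3* gained a call with shRNA1. The causes of these shifts were not tested. With 2 control libraries, calls of up to 0.33 with shRNA2 (*Psmd9*) and -0.35 with shRNA1 (*Psmb10*) were lost when 1 of them was left out, and *Psmb9*, with 41 to 98 counts, and the untested members are limited by depth.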
